A study of Mus musculus with 8 samples.

Results

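The genes described here are 32 genes of fatty acid oxidation and of the peroxisome proliferator-activated receptors (PPARs), chosen by gene symbol from the 45777 genes counted in each library; all 32 were found. They were read in 8 RNA-seq libraries of mouse organoids, which are tumour epithelial cells grown in 3 dimensions, labelled as hepatocellular carcinoma related to metabolic dysfunction-associated steatohepatitis (MASH, fatty liver disease with inflammation). Lines SNU-6624 and SNU-6625 each had 1 library treated with lenvatinib, a kinase inhibitor used against liver cancer that acts on the receptors of VEGF and FGF and on several other receptor kinases. The same 2 lines each had 1 library of a lenvatinib-resistant culture, which carries the treatment label control. The parental group had 1 library of each of 4 lines, SNU-6624, SNU-6625, SNU-6621 and SNU-6622, also with the label control. All 8 libraries are labelled WT. The labels used here give neither a dose nor a duration of lenvatinib and do not say how resistance was selected. With 1 library per line and group, each p-value here reflects how far the group differences disagree between the 2 lines. Technical spread cannot be told apart from that disagreement. The labels name a line for each library, but none ties it to an animal or an independently grown culture of its own.

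Mitochondrial oxidation shortens fatty acids stepwise to acetyl-CoA. Long chains enter through the carnitine shuttle, acyl-CoA dehydrogenases start each round, hydratase, dehydrogenase and thiolase activities complete it, and the electron transfer flavoprotein passes the electrons to the respiratory chain, while peroxisomes start on very long and branched chains. PPAR alpha, gamma and delta are nuclear receptors that bind fatty acids, pair with retinoid X receptors and switch on many of these genes. In liver, PPAR alpha is known as the driver of oxidation in fasting hepatocytes, PPAR gamma is best known from fat cells and is raised in fatty liver, and PPAR delta is found in most tissues.

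Total counts ran from 49 to 61 megacounts per library, so that 3 counts, used here as the floor for a value of 0, are 0.0492 to 0.0612 CPM (counts per megacount of the library). Such floors cover counting error only and treat reads as independent molecules, which amplified reads are not. The liver label was read against 10 hepatocyte markers: Alb, Cps1, Fgb, Serpina1a and Cyp3a11 had 0 counts in all 8 libraries, and Hnf4a held most of the summed marker level in each library. That sum was 5.68 and 11.1 CPM in the lenvatinib libraries, 110 and 121 CPM in the resistant libraries and 91.3 to 151 CPM in the 4 parental libraries. Biliary and progenitor markers (Krt19, Epcam and 5 others) summed to 3218 and 3468 CPM in lenvatinib libraries, 12708 and 11197 CPM in resistant libraries and 7367 to 8620 CPM in parental libraries. Markers of intestinal epithelium (Cdh17, Vil1, Lgals4 and 3 others) summed to 114 and 187 CPM in lenvatinib libraries, 2284 and 934 CPM in resistant libraries and 1267 to 2928 CPM in parental libraries. The 7 macrophage markers summed to 13.6 and 19.5 CPM in lenvatinib libraries, 50.1 and 112 CPM in resistant libraries and 33.8 to 106 CPM in parental libraries, nearly all of it Cd14, while Ptprc, Adgre1, C1qa, C1qb and Lyz2 had 0 counts in all 8 libraries. Markers of endothelium, fibroblasts and fat cells summed to at most 0.548, 1.14 and 2.65 CPM in any library.

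Lenvatinib organoids held less mRNA of PPAR gamma and of the long-chain acyl-CoA dehydrogenase Acadl than parental organoids of both lines, and more of the peroxisomal thiolase Acaa1a. Of the 32 genes, 30 had enough counts to be tested, and 3 of these passed the test (adjusted p under 0.05), 1 higher and 2 lower, beside 5.78% of all 17038 genes tested (1.7% higher and 4.08% lower). In resistant organoids Pparg stood above its lenvatinib level and was the 1 gene of the 30 that passed in that comparison, where 6.23% of all genes tested passed (4.14% higher). Between resistant and parental organoids none of the 30 and none of the 17038 genes passed with edgeR (0%). In that comparison 8 of the 30 had an unadjusted p under 0.05, 1 higher and 7 lower, against 2715 of all genes (15.9%, 8.1% higher and 7.84% lower). DESeq2 called 1104 genes there, Echs1 among the 30, and limma-voom called none.

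**Figure D1:**
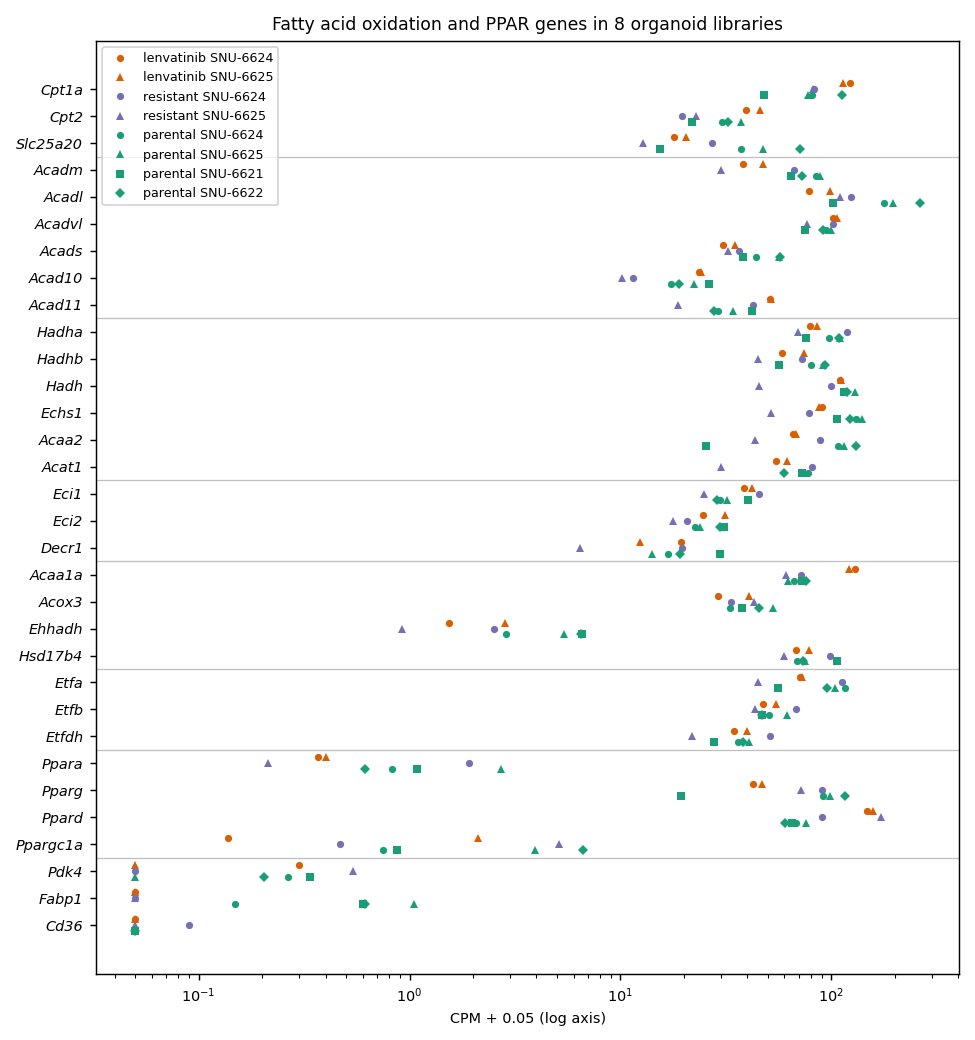
Level of each of the 32 genes in the 8 libraries, in CPM plus 0.05 on a log axis, with genes grouped by role between the grey lines; colour gives the group and the marker shape the line. Of the 32 genes, 25 had at least 10 CPM in all 8 libraries, and Pdk4, Fabp1 and Cd36 lie at the left edge.

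In parental organoids 26 of the 32 genes had at least 10 CPM in each of the 4 lines and 12 had at least 50 CPM. The 32 genes together held 1808 ± 271 CPM (mean ± SD, n = 4 lines). Set per kilobase of transcript, so that genes can be compared with each other, Acadl was highest with 96.6 ± 34.7 CPM per kb, followed by Echs1 with 80.3 ± 9.16, Hadh with 67 ± 3.82, Etfa with 66.8 ± 18.8 and Acaa2 with 62.4 ± 31.1 CPM per kb (mean ± SD over the 4 parental lines for each). Acadl and Acaa2 varied so much between lines that their places in this order lie within their spread. At the low end were Ehhadh with 1.77 ± 0.581, Fabp1 with 1.0 ± 0.665, Ppargc1a with 0.465 ± 0.437, Ppara with 0.370 ± 0.281 and Pdk4 with 0.0471 ± 0.0350 CPM per kb, and Cd36 had 0 counts in these 4 libraries. The order by CPM alone would differ, because transcripts here run from 553 bases (Fabp1) to 6464 bases (Ppargc1a). SNU-6621 was the lowest of the 4 parental lines for 17 of the 32 genes and the highest for 9. Both counts include Cd36, which is a tie at 0 in all 4 lines. Without Cd36, SNU-6622 was highest for 9. The same counts were not made over all genes. These differences between lines have no test, since each parental line has 1 library.

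Among the receptors, Pparg, on chromosome 6 (chr6:115360879-115490404, GRCm38.p6), was the gene that passed in 2 of the 3 comparisons. It had 42.3 and 47.1 CPM in lenvatinib organoids, 90.4 and 71.8 CPM in resistant organoids and 90.9 and 98.9 CPM in parental organoids of SNU-6624 and SNU-6625, in that order of lines, as in the values below. Both lenvatinib libraries lay below all 4 resistant and parental libraries of these lines. Parental SNU-6621 had only 19.3 CPM and SNU-6622 116 CPM, so the lenvatinib values lay inside the range of the 4 parental lines. Against parental organoids Pparg fell in lenvatinib organoids with a log2 fold change of -1.17 (SE 0.15, adjusted p = 0.0388). In resistant organoids it was higher than in lenvatinib organoids with a log2 fold change of 1.02 (SE 0.15, adjusted p = 0.0400). Resistant organoids did not pass against parental organoids, with a log2 fold change of -0.15 (SE 0.14, adjusted p = 0.614), although both resistant values lay below both parental values.

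Ppard, whose receptor is the most widely expressed of the family, had higher values in lenvatinib organoids, which did not pass the test. Its values were 147 and 158 CPM in lenvatinib organoids, 90.1 and 173 CPM in resistant organoids and 68.2 and 75.9 CPM in parental organoids, with 65.2 and 60.3 CPM in parental SNU-6621 and SNU-6622. All 4 lenvatinib and resistant libraries lay above all 4 parental libraries, and among them resistant SNU-6624 was lowest and resistant SNU-6625 highest. The difference did not pass the test between lenvatinib and parental organoids (log2 fold change 1.01, SE 0.32, adjusted p = 0.122), nor between resistant and parental organoids (log2 fold change 0.92, SE 0.33, adjusted p = 0.300), nor between resistant and lenvatinib organoids (log2 fold change -0.09, SE 0.32, adjusted p = 0.879). The ratio of Pparg to Ppard within a library does not depend on how libraries are scaled to each other. Per kilobase it was 0.443 and 0.459 in lenvatinib organoids, 1.55 and 0.640 in resistant organoids and 2.06 and 2.01 in parental organoids of the same lines. Ppard therefore exceeded Pparg per kilobase in both lenvatinib libraries and in resistant SNU-6625, and Pparg exceeded Ppard in resistant SNU-6624 and both parental libraries. Parental SNU-6621 had a ratio of 0.456, as low as the lenvatinib libraries, and parental SNU-6622 had 2.98. For 2 libraries against 2, an exact two-sided permutation test cannot give a p below 0.333.

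**Figure D2:**
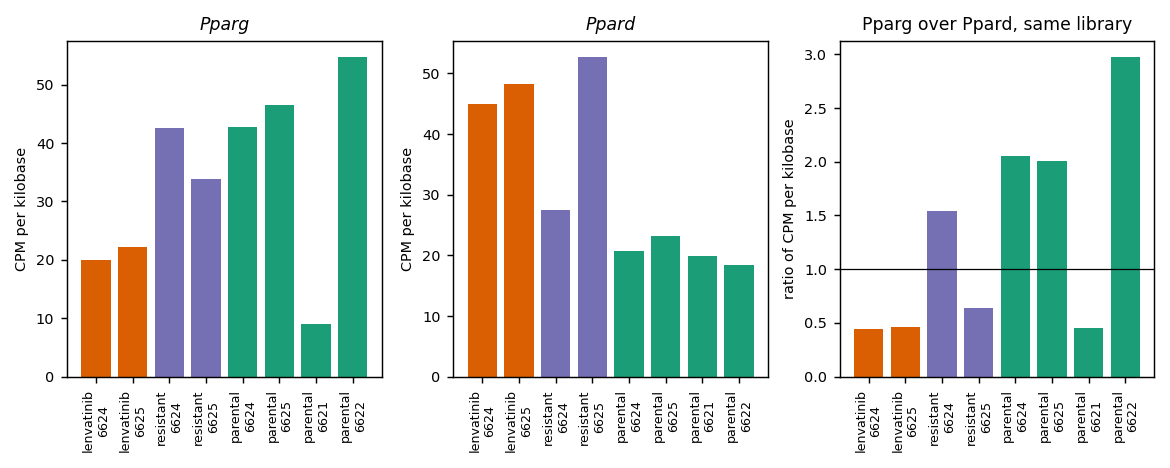
Level of Pparg and Ppard (CPM per kilobase of transcript, bars from 0) and their ratio within each of the 8 libraries, with a line at a ratio of 1. Pparg is lower than Ppard in both lenvatinib libraries, in resistant SNU-6625 and in parental SNU-6621.

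Ppara, the receptor that leads in normal liver, was low everywhere. It had 0.318 and 0.349 CPM in lenvatinib organoids, 1.86 and 0.164 CPM in resistant organoids and 0.778 and 2.67 CPM in parental organoids, with 1.03 and 0.564 CPM in parental SNU-6621 and SNU-6622. Both lenvatinib libraries lay below the parental ones, whereas resistant SNU-6624 lay inside the parental range and resistant SNU-6625 was lowest of all 8. None of its differences passed: a log2 fold change of -2.52 (SE 1.30, adjusted p = 0.256) for lenvatinib over parental, a log2 fold change of -0.97 (SE 1.41, adjusted p = 0.733) for resistant over parental, and a log2 fold change of 1.55 (SE 1.34, adjusted p = 0.487) for resistant over lenvatinib. Ppargc1a, which encodes the coactivator PGC-1 alpha of mitochondrial genes, was also low. It had 0.0884 and 2.06 CPM in lenvatinib organoids, 0.416 and 5.06 CPM in resistant organoids and 0.695 and 3.90 CPM in parental organoids, and in each group SNU-6625 was the higher line. It did not pass for lenvatinib over parental (log2 fold change -1.92, SE 0.62, adjusted p = 0.123), for resistant over parental (log2 fold change -0.14, SE 0.57, adjusted p = 0.915) or for resistant over lenvatinib (log2 fold change 1.78, SE 0.60, adjusted p = 0.136).

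The 3 carnitine shuttle genes had different patterns, and none passed in any comparison. Cpt1a, the malonyl-CoA-inhibited entry enzyme of the outer mitochondrial membrane, had 123 and 114 CPM in lenvatinib organoids, 83.1 and 82.2 CPM in resistant organoids and 81.1 and 77.9 CPM in parental organoids. Lenvatinib libraries were higher than the other 4 of these lines, but parental SNU-6622, at 112 CPM, came close to them. Neither lenvatinib over parental (log2 fold change 0.49, SE 0.16, adjusted p = 0.127) nor resistant over lenvatinib (log2 fold change -0.35, SE 0.16, adjusted p = 0.233) passed. Slc25a20, the translocase that carries acylcarnitines across the inner membrane, had 17.8 and 20.4 CPM in lenvatinib organoids, 27 and 12.7 CPM in resistant organoids and 37.2 and 47.3 CPM in parental organoids. Lenvatinib and resistant libraries all lay below both parental libraries of these lines, and parental SNU-6621 (15.4 CPM) and SNU-6622 (70.9 CPM) spanned nearly the whole range. Its differences did not pass, with a log2 fold change of -1.23 (SE 0.34, adjusted p = 0.0985) for lenvatinib over parental and a log2 fold change of -1.06 (SE 0.34, adjusted p = 0.283) for resistant over parental. Within a library, Cpt1a per kilobase was 2.85 and 2.3 times Slc25a20 in lenvatinib organoids, 1.27 and 2.66 times in resistant organoids and 0.901 and 0.680 times in parental organoids. The ratio was thus above 1 in all 4 lenvatinib and resistant libraries and below 1 in the 2 parental libraries of these lines, while parental SNU-6621 had 1.29 and SNU-6622 0.654.

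Cpt2, which returns the chains to CoA inside the mitochondrion, had 39.5 and 45.8 CPM in lenvatinib organoids, 19.6 and 22.8 CPM in resistant organoids and 30.4 and 37.2 CPM in parental organoids. Resistant libraries were the lowest of these 6 and lenvatinib libraries the highest. The test gave a log2 fold change of -0.84 (SE 0.16, adjusted p = 0.0546) for resistant over lenvatinib and a log2 fold change of -0.58 (SE 0.16, adjusted p = 0.254) for resistant over parental, and neither passed.

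Of the 6 acyl-CoA dehydrogenases, Acadl (chr1:66830839-66863309) was lower in lenvatinib organoids. This enzyme of long chains had 78.1 and 98.6 CPM in lenvatinib organoids, 124 and 109.9 CPM in resistant organoids and 179 and 195 CPM in parental organoids, with 102 and 264 CPM in parental SNU-6621 and SNU-6622. Lenvatinib values lay below all 4 parental lines, and the resistant values lay between those of the other groups in both lines. Acadl fell in lenvatinib organoids with a log2 fold change of -1.17 (SE 0.15, adjusted p = 0.0410). For resistant organoids the differences did not pass, with a log2 fold change of -0.59 (SE 0.15, adjusted p = 0.251) against parental and a log2 fold change of 0.58 (SE 0.15, adjusted p = 0.0895) against lenvatinib organoids.

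The medium-chain enzyme Acadm and the short-chain enzyme Acads showed lower values of the same kind without passing. Acadm had 37.9 and 47.2 CPM in lenvatinib organoids, 66.4 and 29.8 CPM in resistant organoids and 84.3 and 88.2 CPM in parental organoids. Acads had 30.6 and 34.8 CPM in lenvatinib organoids, 36.6 and 32.4 CPM in resistant organoids and 43.8 and 56.4 CPM in parental organoids. For both genes all 4 lenvatinib and resistant libraries lay below both parental libraries of these lines. The lenvatinib difference was a log2 fold change of -1.10 (SE 0.33, adjusted p = 0.111) for Acadm and a log2 fold change of -0.69 (SE 0.16, adjusted p = 0.0719) for Acads, and the resistant difference of Acads against parental was a log2 fold change of -0.44 (SE 0.16, adjusted p = 0.297).

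Acadvl, the enzyme of very long chains at the inner membrane, passed in no comparison. Its values were 102 and 106 CPM in lenvatinib organoids, 102 and 77.1 CPM in resistant organoids and 94.1 and 99.7 CPM in parental organoids, and the groups overlapped; 1151 bases of its exons overlap those of Dvl2. The ratio of Acadl to Acadvl per kilobase in a library was 0.867 and 1.05 in lenvatinib organoids, 1.38 and 1.61 in resistant organoids and 2.15 and 2.22 in parental organoids of the same lines. Parental SNU-6621 had 1.54 and SNU-6622 3.26, so both lenvatinib ratios were below those of all 4 parental lines, and of the resistant ratios that of SNU-6624 was. Acad10, a less studied member of the family, was lowest in resistant organoids, with 11.4 and 10.2 CPM there, 23.6 and 24.2 CPM in lenvatinib organoids and 17.4 and 22.2 CPM in parental organoids. It did not pass, with a log2 fold change of -0.98 (SE 0.20, adjusted p = 0.0609) for resistant over lenvatinib and a log2 fold change of -0.79 (SE 0.20, adjusted p = 0.248) for resistant over parental. Acad11, another less studied member that overlaps Ackr4 by 479 exon bases, had 51 and 51.6 CPM in lenvatinib organoids, 42.7 and 18.7 CPM in resistant organoids and 29.1 and 34.2 CPM in parental organoids.

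The 6 genes of the later mitochondrial steps all had log2 fold changes below 0 in lenvatinib and in resistant organoids against parental organoids, from -0.82 to -0.25 and from -0.999 to -0.09, and none passed. Echs1, the short-chain enoyl-CoA hydratase, had 90.1 and 87.2 CPM in lenvatinib organoids, 78.4 and 51.8 CPM in resistant organoids and 132 and 139 CPM in parental organoids. Resistant libraries were lowest, lenvatinib libraries came between, and all 4 parental lines were above both groups, since SNU-6621 and SNU-6622 had 106 and 123 CPM. The test gave a log2 fold change of -0.70 (SE 0.17, adjusted p = 0.0818) for lenvatinib over parental and a log2 fold change of -0.999 (SE 0.17, adjusted p = 0.247) for resistant over parental. The mitochondrial thiolase Acaa2 had 65.5 and 68 CPM in lenvatinib organoids, 88.2 and 43.5 CPM in resistant organoids and 108 and 115 CPM in parental organoids. All 4 lenvatinib and resistant libraries lay below these parental libraries, but parental SNU-6621 had 25.4 CPM, the lowest value of all 8. Lenvatinib over parental gave a log2 fold change of -0.82 (SE 0.26, adjusted p = 0.123).

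Hadha and Hadhb encode the alpha and beta subunits of the trifunctional protein, which carries out the later steps on long chains, and they lie head to head on chromosome 5 with start sites 273 bases apart. Hadha had 78.9 and 85.2 CPM in lenvatinib organoids, 119 and 69.7 CPM in resistant organoids and 97.6 and 110.3 CPM in parental organoids. Hadhb had 58.5 and 73.9 CPM in lenvatinib organoids, 72.7 and 45 CPM in resistant organoids and 80 and 91.4 CPM in parental organoids. The ratio of the subunits' mRNAs stayed narrow, and the resistant libraries stood at its top: Hadha per kilobase was 0.688 and 0.588 times Hadhb in lenvatinib organoids, 0.833 and 0.790 times in resistant organoids and 0.590 to 0.691 times in the 4 parental organoids. Hadha overlaps Garem2 by 75 exon bases. The stretch between the pair is shown because it holds the upstream sequence of both genes; it is given on the Hadhb strand, chr5:30155003-30155252 (plus strand, GRCm38.p6, from RefSeq), with capitals at 2 GC boxes (GGGCGG), 90 and 25 bases before the Hadhb start:
Hadhb: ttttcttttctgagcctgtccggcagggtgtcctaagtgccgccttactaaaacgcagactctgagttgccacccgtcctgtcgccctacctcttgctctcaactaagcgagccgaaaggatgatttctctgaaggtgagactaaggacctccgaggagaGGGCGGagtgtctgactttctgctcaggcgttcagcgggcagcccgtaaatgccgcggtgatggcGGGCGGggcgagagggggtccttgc
Such a box, on either strand (CCGCCC on the other), is found in 32.7% of all 32851 RefSeq windows of 250 bases before a start.

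Hadh, the short-chain hydroxyacyl-CoA dehydrogenase, was even in 5 of the 6 libraries of these lines and low in 1. It had 109.5 and 111 CPM in lenvatinib organoids, 99.3 and 45.5 CPM in resistant organoids and 117 and 129.8 CPM in parental organoids, so resistant SNU-6625 alone was far below the rest. Acat1, the acetoacetyl-CoA thiolase that also serves ketone bodies, had the same low library, with 54.4 and 61.4 CPM in lenvatinib organoids, 80.8 and 30.1 CPM in resistant organoids and 77.7 and 74.6 CPM in parental organoids.

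Unsaturated fatty acids need the isomerases Eci1 and Eci2 and the reductase Decr1, and none of these 3 passed in any comparison. Eci1 had 38.6 and 42 CPM in lenvatinib organoids, 45.6 and 25 CPM in resistant organoids and 29.6 and 32 CPM in parental organoids. Eci2, for which resistant over lenvatinib gave a log2 fold change of -0.37 (SE 0.17, adjusted p = 0.230), had 24.6 and 31.2 CPM in lenvatinib organoids, 20.5 and 17.8 CPM in resistant organoids and 22.6 and 23.7 CPM in parental organoids. Decr1 had 19.4 and 12.3 CPM in lenvatinib organoids, 19.5 and 6.37 CPM in resistant organoids and 16.8 and 14.1 CPM in parental organoids. In all 3 genes resistant SNU-6625 was the lowest of the 6 libraries. Summed over these 3 genes, parental SNU-6621 held 101 CPM, the highest of the 8 libraries. Yet the same line was lowest or, for Cd36, tied for lowest among the parental lines for 17 of the 32.

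Among the peroxisomal genes Acaa1a (chr9:119341028-119350296), the thiolase of straight chains, rose with lenvatinib. It had 129.9 and 122 CPM in lenvatinib organoids, 72 and 61.3 CPM in resistant organoids and 66.8 and 62.6 CPM in parental organoids, with 72.7 and 76.1 CPM in parental SNU-6621 and SNU-6622. Both lenvatinib libraries stood above the other 6, which lay within a narrow range. The increase over parental organoids was a log2 fold change of 0.88 (SE 0.14, adjusted p = 0.0452); this call was lost with RLE scaling (adjusted p = 0.0507) and with all 8 libraries in the fit (adjusted p = 0.0509). Resistant over lenvatinib gave a log2 fold change of -0.75 (SE 0.14, adjusted p = 0.0524), which did not pass. Acaa1a shares 34% of its 50-base stretches with its copy Acaa1b, so the counts of these 2 genes can trade reads. Acaa1b had 9.69 and 10.1 CPM in lenvatinib organoids, 4.65 and 7.09 CPM in resistant organoids and 4.12 and 5.43 CPM in parental organoids and did not pass (log2 fold change 0.997, SE 0.32, adjusted p = 0.122 for lenvatinib over parental). The end of Acaa1a also overlaps exons of Myd88 on the other strand by 290 bases; Myd88 had a log2 fold change of 0.29 (SE 0.18, adjusted p = 0.330) in the same comparison. The library kit marks strand per the labels, but the strand setting used in counting is not given in the sources used here.

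The other peroxisomal genes did not pass in any comparison. Hsd17b4, the bifunctional enzyme of branched and very long chains, had 68.2 and 78.8 CPM in lenvatinib organoids, 98.4 and 59.6 CPM in resistant organoids and 68.7 and 74.8 CPM in parental organoids. Acox3, the oxidase of branched chains, had 29 and 40.9 CPM in lenvatinib organoids, 33.5 and 42.8 CPM in resistant organoids and 33.1 and 52.6 CPM in parental organoids, and SNU-6625 was the higher line in each group. Ehhadh, the bifunctional enzyme known as a PPAR alpha target in liver, was low, with 1.49 and 2.78 CPM in lenvatinib organoids, 2.47 and 0.868 CPM in resistant organoids and 2.81 and 5.35 CPM in parental organoids. Resistant SNU-6625 was the lowest of the 6 libraries for Hsd17b4 and Ehhadh, and resistant SNU-6624 the highest for Hsd17b4.

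The electron transfer flavoprotein genes did not pass either. Etfa, the alpha subunit, had 71.4 and 72.3 CPM in lenvatinib organoids, 112 and 45 CPM in resistant organoids and 117 and 104 CPM in parental organoids. Etfb, the beta subunit, had 47.4 and 54.6 CPM in lenvatinib organoids, 67.7 and 43.4 CPM in resistant organoids and 50.4 and 61.6 CPM in parental organoids. The subunits did not keep 1 ratio: Etfa per kilobase was 0.966 and 0.850 times Etfb in lenvatinib organoids, 1.06 and 0.666 times in resistant organoids, 1.49 and 1.08 times in parental organoids of the same lines, and 0.765 and 1.30 times in parental SNU-6621 and SNU-6622. Etfdh, the oxidoreductase that hands the electrons to ubiquinone, had 34.6 and 40 CPM in lenvatinib organoids, 51.2 and 21.9 CPM in resistant organoids and 36 and 40.6 CPM in parental organoids, with resistant SNU-6624 highest and resistant SNU-6625 lowest of the 6.

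The 3 genes that handle fatty acids or answer to PPARs in normal tissues were at or near 0. Pdk4, the pyruvate dehydrogenase kinase induced in fasting, had 0.248 and 0 CPM in lenvatinib organoids, 0 and 0.492 CPM in resistant organoids and 0.215 and 0 CPM in parental organoids, with 0.287 and 0.154 CPM in parental SNU-6621 and SNU-6622 and no order by group. Fabp1, the abundant fatty acid-binding protein of hepatocytes and enterocytes, had 0 counts in the 2 lenvatinib and the 2 resistant libraries, and 0.0993 and 1.0 CPM in the parental libraries of SNU-6624 and SNU-6625, with 0.554 and 0.564 CPM in those of SNU-6621 and SNU-6622. The floor for such a 0 is 0.0492 to 0.0594 CPM in those 4 libraries, so all 4 parental values were above it, parental SNU-6624 by the least. Cd36, a fatty acid uptake receptor, had 0 counts in 7 libraries and 0.0396 CPM, below the floor, in resistant SNU-6624. Fabp1 and Cd36 failed the filter on low counts and were not tested, and Pdk4 passed the filter at counts too low to give a useful fold change.

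PPARs paired with retinoid X receptors bind a repeat of the site AGGTCA with 1 base between the copies, so the 250 bases before each start were searched for AGGTCANAGGTCA and its reverse complement TGACCTNTGACCT, in sequences from RefSeq (GRCm38.p6). Of the 32 genes, 28 had an entry, with 30 windows. A match with at most 3 mismatches occurred in 7 of the 30 windows (23.3%), near the 21.3% of all 32851 windows. With at most 2 mismatches it occurred in 4 of the 30 (13.3%), against 3.24% of all windows. These 4 are shown because they hold the closest matches among the genes, with capitals at the match. Fabp1 (chr6:71199629-71199878, plus strand) has 1 mismatch, which 0.484% of all windows match or better; Cd36 (chr5:17835897-17836146), Echs1 (chr7:140116422-140116671) and Etfa (chr9:55512244-55512493), all on the minus strand, have 2 mismatches each:
Fabp1: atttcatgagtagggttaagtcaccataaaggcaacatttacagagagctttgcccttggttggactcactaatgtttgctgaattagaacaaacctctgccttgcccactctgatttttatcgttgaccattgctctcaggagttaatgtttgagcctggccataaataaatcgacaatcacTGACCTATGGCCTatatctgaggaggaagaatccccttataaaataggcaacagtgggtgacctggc
Cd36: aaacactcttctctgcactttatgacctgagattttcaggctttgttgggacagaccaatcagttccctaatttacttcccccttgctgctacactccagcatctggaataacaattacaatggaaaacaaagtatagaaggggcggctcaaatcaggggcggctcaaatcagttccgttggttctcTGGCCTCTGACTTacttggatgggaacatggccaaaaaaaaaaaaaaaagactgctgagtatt
Echs1: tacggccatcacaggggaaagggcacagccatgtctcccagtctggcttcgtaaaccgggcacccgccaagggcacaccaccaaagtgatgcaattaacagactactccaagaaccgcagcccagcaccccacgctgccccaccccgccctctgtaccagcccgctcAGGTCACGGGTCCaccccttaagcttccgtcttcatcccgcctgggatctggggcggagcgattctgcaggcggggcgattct
Etfa: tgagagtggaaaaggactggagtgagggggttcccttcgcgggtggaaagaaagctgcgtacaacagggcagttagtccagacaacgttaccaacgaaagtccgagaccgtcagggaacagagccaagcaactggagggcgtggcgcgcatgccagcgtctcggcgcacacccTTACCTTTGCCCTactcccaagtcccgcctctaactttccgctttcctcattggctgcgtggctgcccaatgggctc
The matches start 67, 63, 83 and 77 bases before the start in Fabp1, Cd36, Echs1 and Etfa, in the order shown. A match of letters is a description of the sequence and not a binding site, and sequence outside these windows was not searched. The first 2 of these genes were at or near 0 in all 8 libraries, and the other 2 were among the highest per kilobase in parental organoids. None of the 3 windows of Pparg, which has several starts, and no window of Acadl or Acaa1a held a match with at most 2 mismatches.

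Across the 30 tested genes, lenvatinib over parental organoids had a median log2 fold change of -0.30, against -0.01 over all 17038 genes. It was below 0 for 20 of the 30 (66.7%), against 50.4% of all genes. In 15 of the 30 (50%) both lenvatinib libraries lay below both parental libraries, against 36% of all genes, and in 8 (26.7%) above, against 36.1%. The lines gave similar values, the median being -0.19 for SNU-6624 and -0.36 for SNU-6625. Acads, Echs1, Slc25a20, Acadm, Acaa2 and Cpt1a had the next smallest unadjusted p-values when the 4 regulator genes are left aside, as given above. Other measures moved with the same libraries: the hepatocyte, biliary, intestinal and macrophage marker sums given above were lower in both lenvatinib than in both parental libraries. Of the 7 biliary and progenitor markers, Krt19 and Spp1 fell, with log2 fold changes of -3.25 and -3.10. Sox9 and Cdh1 went the other way, with 0.56 and 0.39, and did not pass. The hepatocyte marker Hnf4a fell with -3.97. Of the intestinal markers, 2 of the 5 tested fell, Cdh17 with a log2 fold change of -4.52 and Vil1 with -4.17. Neither of the 2 tested macrophage markers passed. Also lower were proliferation markers (Mki67, Top2a, Ccnb1 and Cdk1) at 25.8 and 31.6 CPM in lenvatinib organoids and 450 and 509 CPM in parental organoids. Parental SNU-6621 and SNU-6622 had 154 and 189 CPM, and none of these 4 markers passed. Mitochondrially encoded transcripts were lower too, at 5.89% and 6.24% of counts in lenvatinib organoids and 8.63% and 7.87% in parental organoids. In resistant organoids they were also lower than in these parental libraries, at 5.11% and 6.12%. The part of all these measures in the results was not tested, and in bulk RNA fewer cells of a type and less RNA per cell cannot be told apart.

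The calls of this comparison rest on few libraries. Lenvatinib SNU-6624, lenvatinib SNU-6625, parental SNU-6624 and parental SNU-6625 were each left out in turn. Each time all calls of this comparison were lost with edgeR, among the 30 and among all genes. Resistant SNU-6624 and resistant SNU-6625 belong to neither group compared, but they enter the joint estimate of the spread. Without either of them calls rose among the 30, but they rose over all genes as well. All 3 genes named above kept their direction. The log2 fold change of Pparg lay between -1.24 and -1.11 in these 6 fits. It lay between -1.29 and -1.08 for Acadl and between 0.83 and 0.90 for Acaa1a. A fit of only the 4 libraries compared, added after seeing the data, also gave more calls, among the 30 and over all genes.

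**Figure D3:**
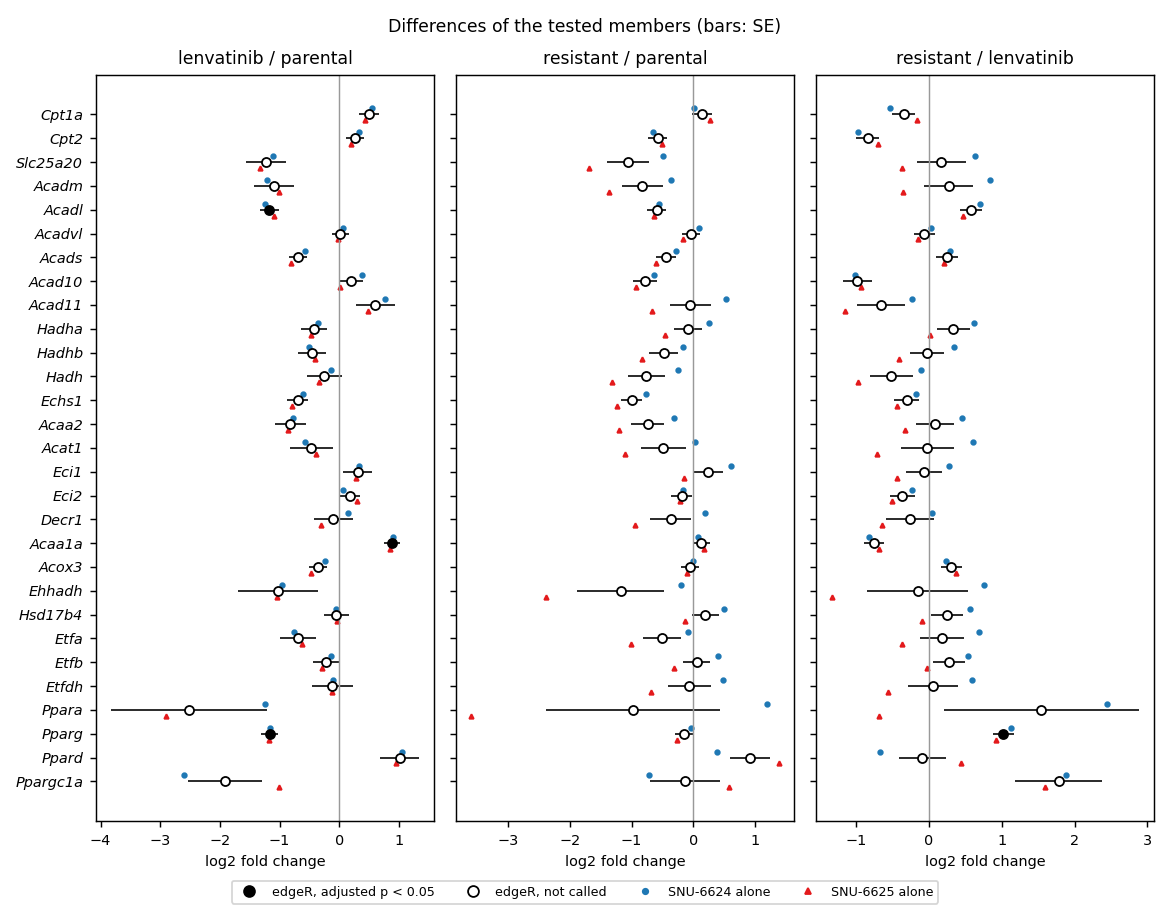
Log2 fold change of 29 of the 30 tested genes (Pdk4 left out for its low counts) in the 3 comparisons, with SE as bars, filled where the adjusted p is under 0.05, and the ratio within each line as small coloured marks. Pparg, Acadl and Acaa1a are filled for lenvatinib over parental, Pparg for resistant over lenvatinib, and no gene for resistant over parental.

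Resistant over parental organoids had a median log2 fold change of -0.28 over the 30 genes and -0.01 over all genes, and here the 2 cultures parted. In SNU-6624 the median was -0.06, with 17 of the 30 (56.7%) below 0 against 49.8% of all genes. In SNU-6625 the median was -0.62, with 25 of the 30 (83.3%) below 0 against 51.3% of all genes. By CPM, which is not scaled for library make-up, resistant SNU-6625 was the lowest of the 6 libraries of these lines for 21 of the 32 genes. This was not counted over all genes. Acaa1a is among the 21, but its scaled log2 ratio to the parental library of SNU-6625 was 0.17. The 32 genes together held 1756 CPM in resistant SNU-6624 and 1256 CPM in resistant SNU-6625. In parental SNU-6624 and parental SNU-6625 they held 1811 and 1972 CPM. Proliferation markers were also lowest in resistant SNU-6625, at 116 and 2.46 CPM in the resistant organoids of SNU-6624 and SNU-6625. The TMM factor (a scaling for the make-up of a library) of resistant SNU-6625, 0.872, was the lowest of the 8. Their part in this result was not tested. Both resistant libraries lay below both parental libraries for 13 genes (43.3%), against 24.6% of all genes, and above for 3 (10%), against 23.1%.

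Echs1, Acad10, Acadl, Cpt2, Slc25a20 and Acads had the smallest p-values of the resistant comparison with parental organoids, all with lower values, and none passed. Leaving out any 1 of the 4 lenvatinib and parental libraries added no call among the 30. Echs1 had a log2 fold change of -1.19 without resistant SNU-6624 and of -0.82 without resistant SNU-6625. In each of these fits the other resistant library stood alone and was assumed to vary like the other groups.

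**Figure D4:**
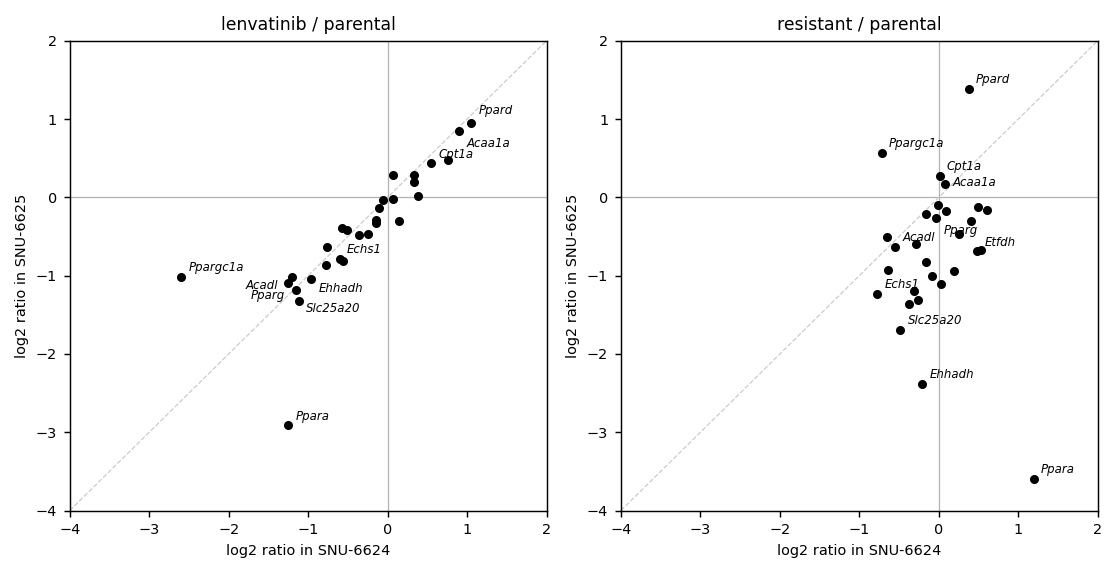
Log2 ratio of each of the 29 genes in SNU-6625 (vertical) against SNU-6624 (horizontal), for lenvatinib over parental on the left and resistant over parental on the right; the dashed line marks equal ratios. On the left most points lie near the dashed line, and on the right most lie below it; the median ratio there was -0.62 in SNU-6625 and -0.06 in SNU-6624.

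Resistant over lenvatinib organoids had a median log2 fold change of 0.02 over the 30 genes, the same as over all genes, and the 2 lines had medians of opposite sign. The median was 0.31 in SNU-6624, where 10 of the 30 (33.3%) were below 0 against 48% of all genes, and -0.37 in SNU-6625, where 22 (73.3%) were below 0 against 51.2%. With library size alone as the scaling the median was -0.13 over the 30 genes and -0.14 over all genes. Pparg was higher in both lines. Hepatocyte, biliary, intestinal and macrophage marker sums were also higher in both resistant than in both lenvatinib libraries, as given above. Of the intestinal markers Cdh17 and Vil1 rose, with log2 fold changes of 4.39 and 4.15, and of the macrophage markers Csf1r and Cd14, with 4.02 and 2.42. Proliferation markers summed to 116 and 2.46 CPM in resistant organoids and 25.8 and 31.6 CPM in lenvatinib organoids; their part in this result was not tested. Acaa1a, Cpt2 and Acad10 had adjusted p-values of 0.0524, 0.0546 and 0.0609, just above the threshold, with lower levels in both resistant libraries than in both lenvatinib libraries, and Acadl had higher levels in both. The call of Pparg was lost, at an adjusted p of 0.124 to 0.325, without either parental or either lenvatinib library, and was kept, at 0.00273 to 0.00372, without either resistant library. With that scaling its adjusted p was 0.0591, and in a fit of only the 4 libraries compared, added after seeing the data, it was 0.0948.

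Another 104 genes around these 32 were read by list: uptake and activation of fatty acids, the carnitine system, other mitochondrial and peroxisomal enzymes, ketone bodies, other PPAR targets, PPAR partners and pyruvate dehydrogenase. Of these, 91 were tested. In lenvatinib over parental organoids 1 of the 91 passed higher and 5 lower, together 6.59%, near the 5.78% of all genes. Fabp5, an epidermal-type fatty acid-binding protein, fell most, with 3.01 and 4.01 CPM in lenvatinib organoids and 209 and 130.3 CPM in parental organoids (log2 fold change -5.53, SE 0.86, adjusted p = 0.0453). Acsl5, which activates long chains to acyl-CoA, had 173 and 176 CPM in lenvatinib organoids and 539 and 549 CPM in parental organoids (log2 fold change -1.73, SE 0.26, adjusted p = 0.0446). Oxct1, the enzyme that lets cells use ketone bodies, had 69.7 and 88.1 CPM in lenvatinib organoids and 179 and 255 CPM in parental organoids (log2 fold change -1.53, SE 0.17, adjusted p = 0.0371). For each of these 3 genes both lenvatinib values lay below the parental values of the same lines. The parental library of SNU-6621, which was not in the fit, had 5.18 CPM of Fabp5 and 77.1 CPM of Oxct1, near the lenvatinib values. Lpin1, a phosphatidate phosphatase and PPAR target, and Acot9, a mitochondrial thioesterase, had log2 fold changes of -1.17 and -0.9999. The gene that rose was Pprc1, a relative of PGC-1 alpha, with 107 and 97.5 CPM in lenvatinib organoids and 51.5 and 45.2 CPM in parental organoids (log2 fold change 0.9998, SE 0.15, adjusted p = 0.0430).

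None of the 91 passed in resistant over parental organoids, where the median was -0.15. In resistant over lenvatinib organoids 2 of the 91 passed higher and 4 lower, together 6.59%, near the 6.23% of all genes. Acsl4, an activator of polyunsaturated chains, and Acot9 were higher, by 1.55 and 1.03 on the log2 scale. Acsl1, the main acyl-CoA synthetase of liver and a PPAR target, fell to 18.3 and 13.7 CPM in resistant organoids, against 50.7 and 54.9 CPM in lenvatinib organoids (log2 fold change -1.56, SE 0.21, adjusted p = 0.0382). Slc27a3, a member of the fatty acid transporter family, and Rxrb, a PPAR partner, were lower with log2 fold changes of -3.35 and -1.15.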

How the data were processed

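Gene expression was measured by RNA-seq in 8 libraries, made with a stranded poly(A) kit per the labels' protocols. The deposited files hold whole-number read counts per gene, per the file headers. Per the submitters' processing notes, the authors used StringTie 2.1.3b, HISAT2 2.1.0, Bowtie2 2.3.4.1, Trimmomatic 0.38 and FastQC 0.11.7, and the build is mm10. The step from alignment to counts is not given in the sources used here. A strand setting that does not match the kit would change counts where genes overlap.

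From the counts, CPM is the count over the library total, and CPM per kb divides it by the longest RefSeq-linked GENCODE transcript. The tests were edgeR 4.0.16 quasi-likelihood F tests (R 4.3.3) on 6 libraries (2 lines in 3 groups) in a model of line plus group, with TMM scaling, the tool's filter on low counts (17038 genes kept) and Benjamini-Hochberg adjustment over all of them, called under 0.05. SE is the log2 fold change over the square root of F. The spread was estimated over the 3 groups jointly (2 residual and 2.53 prior degrees of freedom; biological coefficient of variation 0.336). Ratios within a line are on TMM-scaled log2 CPM with a prior count of 2. Line pairs the libraries because both lines are in each group; deviations from group means correlated within a line at 0.290, 0.504 and 0.288 across genes for lenvatinib with resistant, lenvatinib with parental and resistant with parental libraries.

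The 32 genes and all lists were chosen with earlier results of these data known. Named with test values are the genes called, the 4 regulators Ppara, Pparg, Ppard and Ppargc1a, and the 6 genes with the smallest p among the others, per comparison; of other pathway genes, those called, up to 6 per comparison. Acaa1b and Myd88 were added for their shared sequence. Alternatives were no line term, library size or RLE scaling, DESeq2 1.42.0, limma-voom (limma 3.58.1), no filter, at least 1 CPM in 2 libraries, all 8 libraries and each library left out. Multi-biotics, named in the design text, are on no library label analysed here. The steps were tested on simulated counts with known changes in the lenvatinib group, for the size and direction of the changes found. The simulation used the same spread for every gene and no difference between lines, so it does not cover lines that part. The values of 1 gene of the wider pathway lists are not reported here.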

Additional observations from a re-analysis of the deposited data

Results flagged for a closer look

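Hsd17b4, the peroxisomal bifunctional enzyme, stood apart in 1 parental line. SNU-6621 had 106 CPM, against 68.7, 74.8 and 73.1 CPM in SNU-6624, SNU-6625 and SNU-6622, a gap to the next line of 0.836 of the whole range, above Dixon's critical value for 4 samples. Of the 32 genes, the 29 with enough counts were looked at in this way, and chance alone marks about 1 group in 20.

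Some genes moved in opposite directions in the 2 lines, by at least 0.5 on the log2 scale in each; with 1 library per line and group these differences between lines were not tested. For resistant over lenvatinib, the log2 ratio of Acat1 was 0.60 for SNU-6624 but -0.72 for SNU-6625. Ehhadh had 0.75 in SNU-6624 and -1.34 in SNU-6625, at levels under 3 CPM. Etfdh, the link to ubiquinone, had 0.59 in SNU-6624 and -0.56 in SNU-6625. Ppara had 2.45 in SNU-6624 and -0.68 in SNU-6625. For resistant over parental, Acad11 had 0.53 in SNU-6624 and -0.68 in SNU-6625. Ppara had 1.20 in SNU-6624 and -3.59 in SNU-6625, and Ppargc1a -0.72 in SNU-6624 and 0.57 in SNU-6625; both are low genes, with at most 6.61 CPM in any library. In 6 of these 7 cases SNU-6625 had the negative ratio. All 7 use the same 2 resistant libraries, and Ppara is listed under both comparisons, so the cases are not independent. The same tally was not made over all genes.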

How the results depend on the processing

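Genes called over all 17038 varied with the test. For lenvatinib over parental they were 985, against 3648 with DESeq2, 1592 with limma-voom, 174 without the filter, 7942 with only the 4 libraries compared (chosen after seeing the data) and 0 to 7798 with 1 library left out. For resistant over lenvatinib they were 1061, against 3552 with DESeq2, 1689 with limma-voom, 324 without the filter, 234 with only the 4 libraries and 0 to 6284 with 1 left out. For resistant over parental they were 0, against 1104 with DESeq2 and 0 to 5819 with 1 left out (5819 without resistant SNU-6624, and 580 with that of SNU-6625 left out). Of the 32 genes, of which 29 to 32 were tested in each fit, lenvatinib over parental called 3, against 9 with DESeq2, 0 without the filter, 19 with only the 4 libraries and 0 to 20 with 1 left out. Resistant over lenvatinib called 1, against 3 without the replicate block (line), 2 with library size only, 5 with DESeq2, 4 with limma-voom, 0 without the filter, 4 with at least 1 CPM in 2 libraries, 0 with only the 4 libraries and 0 to 17 with 1 left out. Resistant over parental called 0, against 1 with DESeq2 and 0 to 20 with 1 left out. Both counts of 20, without resistant SNU-6624, include Fabp1, which passed the filter there, and are 19 over the 30 genes of the main comparison. Without the replicate block lenvatinib over parental kept 3 called and resistant over parental 0. The median log2 fold change of the genes tested for lenvatinib over parental lay between -0.53 and -0.20 with 1 library left out. Higher and lower calls with library size only were 427 and 556 (289 and 696 with TMM) for lenvatinib over parental, and 596 and 663 (706 and 355) for resistant over lenvatinib. Without the filter, which tests 24856 genes, adjusted p-values for lenvatinib over parental were 0.0537 for Pparg, 0.0572 for Acadl and 0.0654 for Acaa1a. No named gene changed sign for lenvatinib over parental under these alternatives. With 1 library left out, 4 log2 fold changes changed sign in some fits: resistant over lenvatinib lay between -1.27 (resistant SNU-6624 left out) and 3.04 (resistant SNU-6625 left out) for Ppara and between -0.65 (resistant SNU-6625 left out) and 0.42 (resistant SNU-6624 left out) for Ppard, and resistant over parental lay between -3.50 (resistant SNU-6624 left out) and 0.81 (resistant SNU-6625 left out) for Ppara and between -0.91 (parental SNU-6625 left out) and 0.71 (parental SNU-6624 left out) for Ppargc1a. The last was 0.44 without the replicate block and 0.29 with limma-voom. The cause was not tested. Counts under 3 CPM (Ppara, Pdk4, Fabp1, Cd36) limit what can be seen of those genes.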

Other observations

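Pdk4 was nearly absent, and its relatives among the kinases that switch off pyruvate dehydrogenase were present. Pdk1, the hypoxia-induced kinase, had 94 and 97.8 CPM in lenvatinib organoids, 213 and 52.6 CPM in resistant organoids and 185 and 219 CPM in parental organoids of SNU-6624 and SNU-6625, in that order of lines. Pdk2 had 49.3 and 51 CPM in lenvatinib organoids, 41.3 and 22.3 CPM in resistant organoids and 54.5 and 52.4 CPM in parental organoids. Pdk3 had 4.35 and 6.44 CPM in lenvatinib organoids, 8.21 and 5.24 CPM in resistant organoids and 5.94 and 6.33 CPM in parental organoids. Pdk1 was low in both lenvatinib libraries and lowest in resistant SNU-6625, and none of the 10 genes of the pyruvate dehydrogenase list passed the test in any of the 3 comparisons. These kinases were chosen after their values were seen.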
